A study of Populus tremula x Populus tremuloides with 12 samples.

Results

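RNA sequencing compared greenhouse leaves of MYB165-overexpressing hybrid poplar (OE, 3 libraries) with greenhouse leaves of wild-type poplar (WT, 3 libraries), which are 6 of the 12 libraries of the study. These libraries were chosen by their labelled genotype and growth condition, and all expressed genes were compared. OE plants carried MYB165 in the binary vector pMDC32, introduced with Agrobacterium into Populus tremula x Populus tremuloides, clone INRA 353-38, and the other plants are labelled wild type. All plants spent 1 month in a mist chamber after tissue culture and 2 months in the greenhouse, and leaves at plastochron index 7 to 10 were taken. The other 6 libraries, 3 OE and 3 WT, came from plants that then spent 1 week outdoors in sunlight. Each library came from its own plant, and the sources used here do not say how many independent transgenic lines the OE plants represent. The files list genes by ID and do not pair the IDs with names, so MYB165 itself and markers of the leaf tissue were not analysed here.

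MYB165 is known from poplar as a MYB repressor of the phenylpropanoid and flavonoid pathways. These pathways turn phenylalanine into lignin precursors, hydroxycinnamic acids, flavonols, anthocyanins and the condensed tannins that are abundant in poplar leaves. Repressors of this kind act on promoters of pathway genes and can also bind the bHLH partners that MYB activators need.

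Levels are given in CPM, counts per 1000000 counts, at library sizes scaled by TMM, a trimmed mean of log ratios between libraries. The 6 greenhouse libraries held between 8480528 and 20052212 gene counts. A library with no count of a gene could hold up to 3 counts, which is between 0.143 and 0.364 CPM here. Tests covered 22959 of the 33975 genes in the files. A library stood apart in each group, in OE by its gene levels and in WT by its reads outside annotated genes. OE greenhouse 3 differed by more than 2-fold from OE greenhouse 1 at 16.0% of tested genes and from OE greenhouse 5 at 15.4%, while OE greenhouse 1 and 5 differed by that much at 4.69%. The WT pairs ranged from 4.46% (WT greenhouse 3 and 5) to 7.51% (WT greenhouse 1 and 5). WT greenhouse 5 had 32.2% of its reads outside annotated genes, while the OE greenhouse libraries ranged from 7.23% to 8.15% and the other WT greenhouse libraries were at 7.05% (replicate 1) and 16.4% (replicate 3). The part of these differences in the results was not tested beyond the values given without each library.

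In greenhouse leaves 523 genes rose and 571 fell in OE against WT. This was 4.77% of the tested genes, or 2.28% higher and 2.49% lower (limma, adjusted p under 0.05 over all tested genes). The raised genes had a median level of 17.5 CPM in OE and 6.82 CPM in WT, and a median fitted change of 2.61-fold. The lowered genes had a median level of 8.18 CPM in OE and 23.3 CPM in WT, and a median fitted change of 2.33-fold. The decreases spread further: the middle 50% of log2 fold changes ran from -2.19 to -0.79 among lowered genes and from 0.95 to 1.92 among raised genes. In all 523 raised and all 571 lowered genes the 3 OE libraries did not overlap the 3 WT libraries. The same held in the higher direction for 13.3% and in the lower direction for 14.4% of all tested genes, and these are the libraries that made the calls. In whole leaves, fewer cells of a type and less RNA per cell cannot be told apart. Of the WT greenhouse libraries, leaving out replicate 5, 3 or 1 took the count of 1094 to 274, 461 or 683, in that order. It was 706 without OE sunlight 6, 317 when only the 6 greenhouse libraries were fitted, 328 without OE greenhouse 3 and WT greenhouse 5, and 1849 with quality weights per library. Under scaling by library totals 1241 genes were higher and 334 lower, and the median log2 fold change over the tested genes was 0.23, where TMM scaling gave 0.011.

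**Figure D1:**
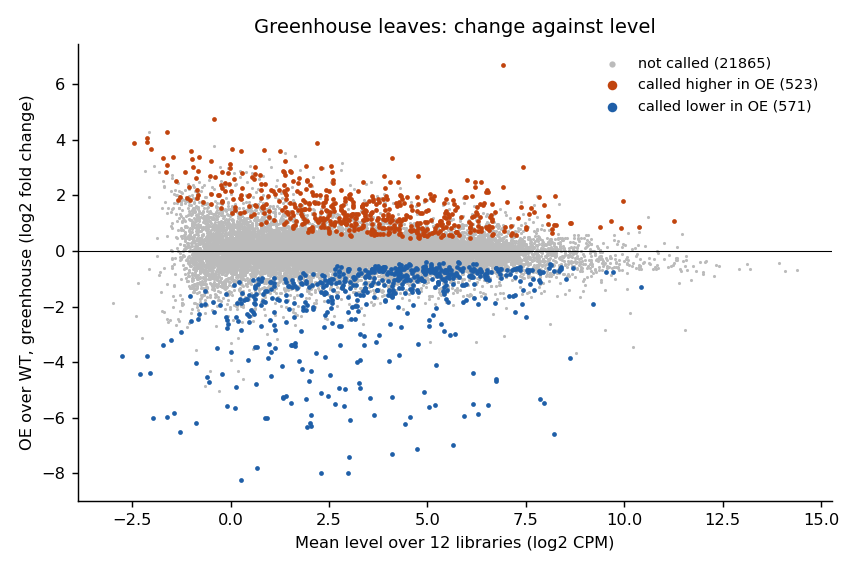
Each point is a tested gene, with its mean level over all 12 libraries (log2 CPM) on the horizontal axis and the fitted OE over WT log2 fold change in the greenhouse on the vertical axis. Orange points are the 523 genes called higher in OE and blue points the 571 called lower, and the blue points reach further from 0 than the orange ones.

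The lowered gene with the largest loss in CPM was Potra002448g18542, which was abundant in WT. It stood at 29.0, 9.34 and 24.5 CPM in OE greenhouse 1, 3 and 5, against 2320, 1027 and 2648 CPM in WT greenhouse 1, 3 and 5. The lowest WT library was still far above the highest OE library. The means were 20.9 ± 10.3 CPM in OE and 1999 ± 857 CPM in WT (SD, n = 3 each). The fitted log2 fold change was -6.57 ± 0.48 (SE), or 94.9-fold lower in OE (limma adjusted p = 3.5e-05). By mean level it was number 8087 of the tested genes in OE greenhouse and number 51 in WT greenhouse. In sunlight it averaged 110 ± 33.0 CPM in OE and 2126 ± 684 CPM in WT (SD, n = 3 each), and the fitted change was -4.29 ± 0.50 (SE) on the log2 scale with a limma adjusted p of 0.00107.

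Potra007760g26019 had the next largest loss in CPM among lowered genes. It stood at 94.4, 138 and 76.5 CPM in OE greenhouse 1, 3 and 5, against 2256, 805 and 1750 CPM in WT greenhouse 1, 3 and 5. Here OE greenhouse 3 was the highest of its group, and WT greenhouse 3 was again the lowest of WT. The means were 103 ± 31.4 CPM in OE and 1604 ± 736 CPM in WT (SD, n = 3 each). The log2 fold change was -3.86 ± 0.41 (SE), or 14.5-fold lower in OE (limma adjusted p = 4.15e-04). In sunlight the log2 fold change was -3.28 ± 0.42 (SE, limma adjusted p = 0.00215). Both decreases were called under every alternative run.

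Among raised genes the largest gain in CPM was that of Potra164274g27161, already abundant in WT. It stood at 4326, 2163 and 3806 CPM in OE greenhouse 1, 3 and 5, against 1290, 1756 and 1645 CPM in WT greenhouse 1, 3 and 5. OE greenhouse 3 lay just above WT, so the groups did not overlap by a small margin. The means were 3432 ± 1129 CPM in OE and 1564 ± 244 CPM in WT (SD, n = 3 each). The fitted increase was 2.11-fold, or 1.08 ± 0.27 (SE) on the log2 scale, with a limma adjusted p of 0.0432. The call was lost without any 1 of WT greenhouse 1, 3 and 5 or OE greenhouse 1 and 5 (limma adjusted p between 0.0869 and 0.136), and without OE sunlight 2, 4 or 6 or WT sunlight 6 (between 0.0593 and 0.0653). It was also lost with no filter (0.0507) and in the fit of the 6 greenhouse libraries (0.128). In sunlight it averaged 3587 ± 445 CPM in OE and 1995 ± 540 CPM in WT (SD, n = 3 each), and the fitted change of 0.89 ± 0.27 (SE) on the log2 scale did not pass the test (limma adjusted p = 0.241).

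Potra001152g10026 was the steadier of the raised genes. It stood at 1819, 2488 and 2034 CPM in OE greenhouse 1, 3 and 5, against 603, 597 and 592 CPM in WT greenhouse 1, 3 and 5. The 3 WT values lay within a few percent of each other, and every OE value was far above them. The means were 2114 ± 342 CPM in OE and 597 ± 5.49 CPM in WT (SD, n = 3 each). The fitted increase was 3.52-fold, or 1.81 ± 0.18 (SE) on the log2 scale, with a limma adjusted p of 1.95e-04. This call held under every alternative run. In sunlight it averaged 1184 ± 72.5 CPM in OE and 680 ± 172 CPM in WT (SD, n = 3 each), and the fitted change was 0.83 ± 0.18 (SE) on the log2 scale with a limma adjusted p of 0.0488.

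**Figure D2:**
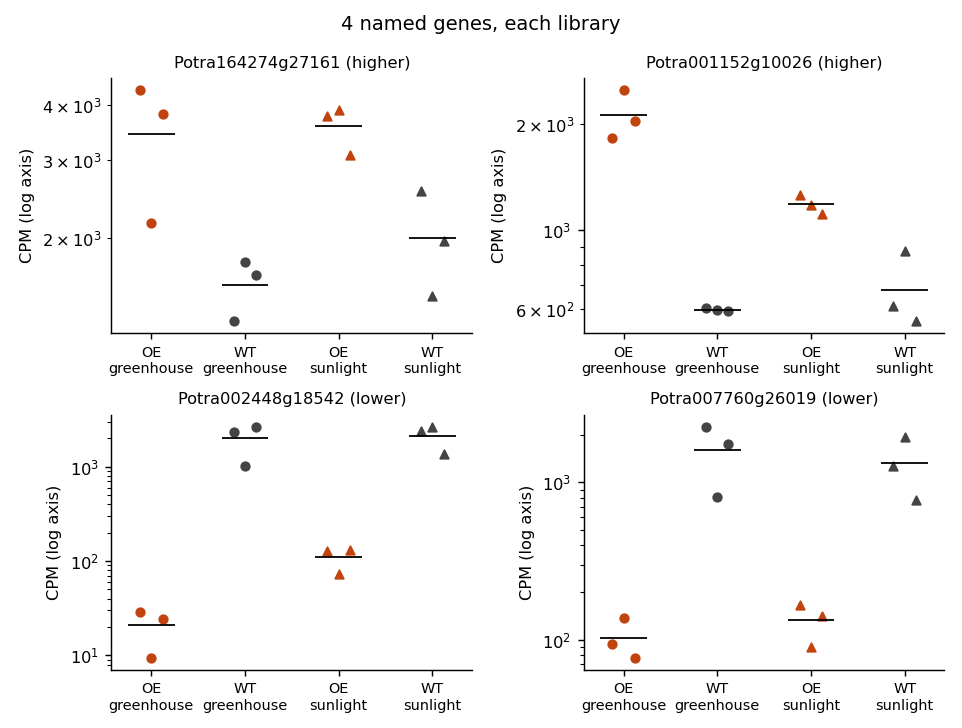
Each panel shows a named gene, with 1 point per library and a horizontal line at the group mean, on a log axis of CPM. Orange points are OE and dark points WT, circles greenhouse and triangles sunlight; in the greenhouse OE and WT do not overlap for any of the 4 genes.

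Changes of at least 8-fold were mostly decreases, and a larger share of these decreases than of any other class was called whichever single greenhouse library was left out. Among lowered genes 100 of 571 fell at least 8-fold by the fitted value, 56 fell 4-fold to 8-fold, 198 fell 2-fold to 4-fold and 217 fell less than 2-fold. Among raised genes 27 of 523 rose at least 8-fold, 88 rose 4-fold to 8-fold, 257 rose 2-fold to 4-fold and 151 rose less than 2-fold. Leaving out each greenhouse library in turn gave 6 further fits. Of the genes at least 8-fold lower, 78 of 100 were called lower in all 6 of them, against 7 of the 27 at least 8-fold higher called higher. Of the decreases under 2-fold 15 of 217 were called in all 6, and of the increases under 2-fold 7 of 151. In all, 152 lowered and 95 raised genes were called in all 6 fits. The 2 classes of at least 8-fold differed in level, and the part of this in the shares called was not tested. The genes at least 8-fold higher had a median level of 2.75 CPM in OE and 0.222 CPM in WT, and the WT mean of 20 was under 1 CPM. The genes at least 8-fold lower had a median level of 0.806 CPM in OE and 21.2 CPM in WT, and the OE mean of 59 was under 1 CPM. Their number was between 79 and 103 when any 1 greenhouse library was left out, and 68 when OE greenhouse 3 and WT greenhouse 5 were both left out. The number at least 8-fold higher was 10 without WT greenhouse 5, 17 without WT greenhouse 1 or WT greenhouse 3, 15 without OE greenhouse 3, 44 without OE greenhouse 5, 12 without both OE greenhouse 3 and WT greenhouse 5, 12 when only greenhouse libraries were fitted, and 49 with scaling by library totals.

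**Figure D3:**
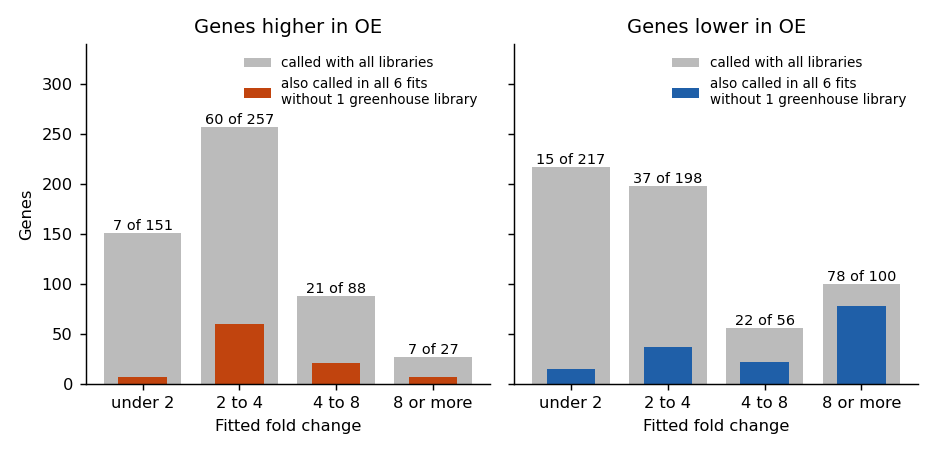
Grey bars count the genes called higher (left) or lower (right) in OE greenhouse by fitted fold change, and coloured bars count those also called in all 6 fits that leave out 1 greenhouse library. In the class of 8-fold or more, 7 of 27 raised genes and 78 of 100 lowered genes were called in all 6.

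The decreases of at least 8-fold included abundant transcripts. With a mean of at least 100 CPM in either group, 22 genes fell at least 8-fold, between 8.18-fold and 157-fold by the fitted value. By the same limits 2 genes rose at least 8-fold, 1 by 8.05-fold and the other by 104-fold. The 22 lowered genes summed to 324 CPM in OE and 10822 CPM in WT, and the 2 raised genes summed to 1677 CPM in OE and 69.4 CPM in WT. These sums describe genes chosen by their change in these libraries. The limit of 100 CPM was met by the higher group, which is WT for a lowered gene and OE for a raised gene. In the lower group the median was 8.05 CPM for the lowered genes (OE) and 34.7 CPM for the raised genes (WT). How many tested genes reached 100 CPM in a group was not worked out, so the counts of 22 and 2 stand without a share. The 100 most abundant genes by mean level over all 12 libraries held 4 raised genes and 1 lowered gene. That ranking includes the OE libraries, so a strong decrease itself moves a gene down in it. The uncalled genes among the 100 had fitted log2 fold changes between -3.44 and 1.21. Calls were otherwise spread over all levels. In 4 classes of equal size by mean level over all 12 libraries, from the lowest to the highest, the raised share was 2.39%, 2.46%, 1.90% and 2.37%, and the lowered share was 2.35%, 2.21%, 2.27% and 3.12%. The fitted changes of called genes were larger in the lowest class, where the median log2 fold change was 2.03 among raised and -2.18 among lowered genes, than in the highest class, where it was 1.06 and -0.85. The median standard error of the log2 fold change was 0.38 in the lowest class and 0.17 in the highest.

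The called genes made up a small part of the transcript pool. At TMM scaling the summed OE minus WT difference was 23091 CPM for the raised genes and -26482.5 CPM for the lowered genes. The loss was larger in CPM and the gain was larger as a share of gene counts. These genes were chosen by their change in the same greenhouse libraries, so the sums describe the calls and do not test them. The 523 raised genes summed to 37340, 45497 and 36228 CPM in OE greenhouse 1, 3 and 5, against 16237, 17317 and 16238 CPM in WT greenhouse 1, 3 and 5. The 571 lowered genes summed to 17578, 12860 and 16643 CPM in OE greenhouse 1, 3 and 5, against 43189, 34733 and 48607 CPM in WT greenhouse 1, 3 and 5. OE greenhouse 3 had the highest sum of raised genes and the lowest sum of lowered genes among the OE libraries. As shares of gene counts, the raised genes held 4.12% ± 0.58 in OE and 1.5% ± 0.18 in WT, and the lowered genes held 1.63% ± 0.24 in OE and 3.79% ± 0.48 in WT (SD, n = 3 each). The 10 genes with the largest differences carried 36.9% of the summed gain in CPM of the raised genes and 35.3% of the summed loss of the lowered genes. Gene by gene the same library was extreme: OE greenhouse 3 was the highest OE library for 68.6% of raised genes and the lowest for 62.0% of lowered genes, against 41.3% and 40.7% of all tested genes. Among WT libraries, WT greenhouse 5 was the highest for 59.0% of lowered genes, against 34.4% of all tested genes. The median log2 difference from the WT mean was 1.30, 1.62 and 1.20 for raised genes in OE greenhouse 1, 3 and 5, and -1.03, -1.49 and -1.10 for lowered genes.

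**Figure D4:**
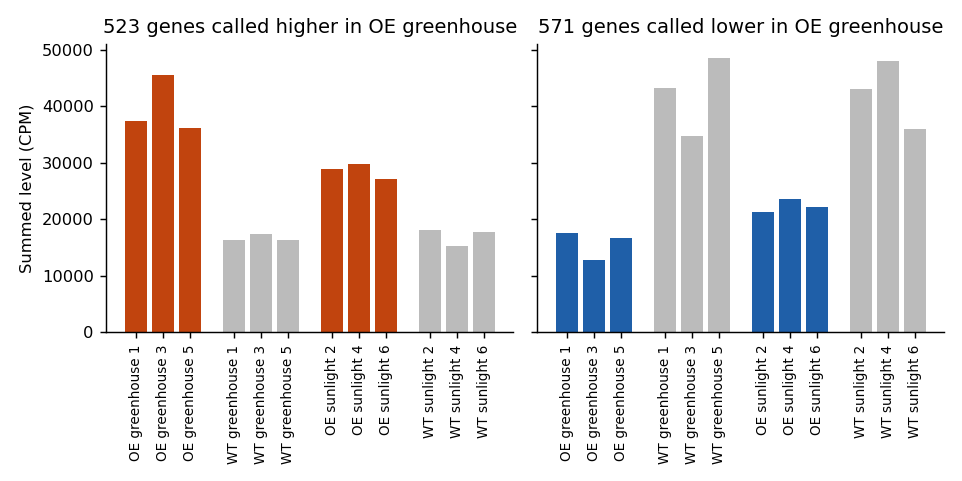
Bars give the summed level in CPM of the 523 raised genes (left) and the 571 lowered genes (right) in each library, coloured for OE and grey for WT. In the greenhouse the OE bars lie between 36228 and 45497 for raised genes and between 12860 and 17578 for lowered genes, and the sunlight bars show the same genes in libraries of other plants. The genes were chosen by their change in the greenhouse libraries shown.

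Measures of whole libraries were compared as well. The 100 most abundant genes of each library held 27.4%, 23.7% and 27.7% of gene counts in OE greenhouse 1, 3 and 5, against 30.04%, 31.7% and 38.3% in WT greenhouse 1, 3 and 5. No OE library reached the lowest WT library, a difference of -7.08 percentage points with an exact two-sided permutation p of 0.1, the smallest that 3 against 3 allows (0.15 adjusted over 3 measures). In sunlight the groups overlapped. OE sunlight 2, 4 and 6 held 26.3%, 30.1% and 27.4%, and WT sunlight 2, 4 and 6 held 26.4%, 25.3% and 27.4%. At the depth of the shallowest greenhouse library the expected number of genes with a count was 25988, 25899 and 26089 in OE greenhouse 1, 3 and 5, against 25884, 25874 and 25562 in WT greenhouse 1, 3 and 5. The OE mean was 219 genes higher, with exact permutation p = 0.1 (0.15 adjusted). WT greenhouse 5, with the most reads outside genes, had the highest share in abundant genes and the fewest genes at equal depth. Without it the differences were -4.58 percentage points and 113 genes. The share of reads outside genes was 7.74% ± 0.47 in OE and 18.5% ± 12.7 in WT (SD, n = 3 each), with exact permutation p = 0.4 (0.4 adjusted). That difference was -10.8 percentage points, and became -3.97 when WT greenhouse 5 was left out and -16.5 when WT greenhouse 1 was.

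The sunlight libraries show the same genotypes in 6 other plants. To keep the choice of genes apart from them, genes were called from the 6 greenhouse libraries without the others, a fit that called 317 genes or 1.43% of those it tested, 142 higher and 175 lower in OE. Of the 175 lowered genes all 175 were lower in OE by the fitted value in sunlight too, and in 157 (89.7%) the OE and WT sunlight libraries did not overlap. Over all tested genes 49.4% were lower in OE in sunlight by the fitted value, and 7.67% were lower without overlap. Of the 142 raised genes 140 were higher in OE in sunlight and 105 (73.9%) did not overlap, against 50.6% and 8.29% of all tested genes. All 87 genes at least 8-fold lower in that greenhouse fit were lower without overlap in sunlight, with a median log2 fold change of -5.11 in the greenhouse and -3.85 in sunlight. The 12 genes at least 8-fold higher had medians of 3.37 in the greenhouse and 2.06 in sunlight, and 10 of them did not overlap. The greenhouse values chose these genes, so their sizes are not an even comparison with sunlight. The greenhouse fit without WT greenhouse 5 called 40 lower and 9 higher, of which 100% and 88.9% did not overlap in sunlight. Without OE greenhouse 3 it called 416 lower and 420 higher, of which 61.3% and 63.3% did not overlap.

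**Figure D5:**
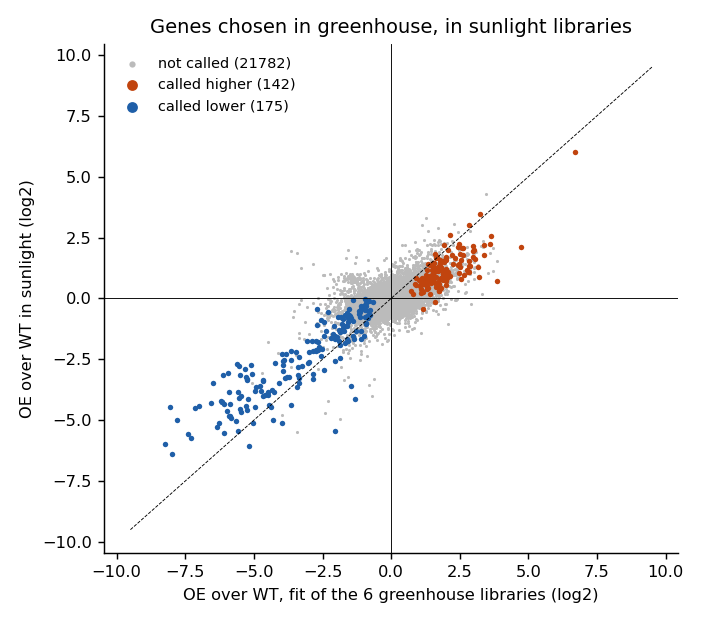
Each point is a gene, with its OE over WT log2 fold change in the fit of the 6 greenhouse libraries on the horizontal axis and that in sunlight on the vertical axis; the dashed line marks equal values. The 175 genes called lower in the greenhouse fit (blue) all lie below 0 in sunlight, and 140 of the 142 called higher (orange) lie above 0.

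No gene had an OE effect in the greenhouse that differed from that in sunlight at the threshold. The smallest limma adjusted p of the difference was 0.557, and 1377 of the 22959 tested genes were under an unadjusted limma p of 0.05. With no difference at any gene, a share of about 0.05 of the tested genes would fall under that limit. The count of 1377 therefore does not by itself show differing effects. For the named genes the difference of the log2 fold changes, greenhouse minus sunlight, was -2.28 for Potra002448g18542 (95% interval -3.80 to -0.76), -0.58 for Potra007760g26019 (-1.87 to 0.71), 0.19 for Potra164274g27161 (-0.65 to 1.03) and 0.99 for Potra001152g10026 (0.43 to 1.54). The limma adjusted p was at least 0.818 for each of the 4.

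Many genes outside the calls were measured closely enough to bound their change. Of the 21865 genes not called, 14818 (67.8%) had a 95% interval of the fold change that lay within 2-fold in both directions. Another 1349 uncalled genes had a fitted change of at least 2-fold, 650 higher and 699 lower, so fitted changes of this size often did not pass the test at this spread. How many of these fitted values reflect a change between the genotypes was not tested. The interval of 1506 uncalled genes reached 4-fold or more.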

How the data were processed

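Each deposited file gives whole-number read counts by gene, not normalized as far as the values show, and its 5 summary entries entered neither library sizes nor tests. Per the submitters' processing notes, TopHat2 2.1.1, Cufflinks and HTSeq 0.6.1 were used, with no role given. The sources used here do not give the genome build, annotation or strand setting. Reads that fitted more than 1 gene were between 3.99% and 6.59% of all reads over the 12 libraries. Reads aligned to more than 1 place were between 3.73% and 5.80%. Both kinds are among the summary entries, outside the gene counts, so overlapping or near-identical genes can lose reads. Whether such genes also gained reads was not analysed.

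A gene was tested if 3 or more libraries reached 0.69 CPM, which is 10 counts in a library of median size, and its counts summed to 15 or more. Of the rest, 4288 had no count and 6728 too few. Counts were scaled by TMM and fitted with limma 3.58.1 (voom weights, robust empirical Bayes, Benjamini-Hochberg adjustment) in R 4.3.3. All 12 libraries, as 4 group means, shared the estimate of each gene's spread. No count model was run. Replicates differed by more than sampling noise (chi-square over its degrees of freedom between 17.6 and 70.3). Library measures used an exact permutation test, with counts thinned to 8480528 by the hypergeometric expectation. The scripts were tested on simulated counts. The 95% intervals of fold changes come from the limma fit, and the limits for a count of 0 cover counting error only.

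The comparison and lists were chosen with earlier results of these data known. Named genes are, in each direction, the 2 called genes at least 2-fold changed, without overlap, with the largest difference in mean CPM. Lists by function were not applied, as the IDs carry no names. The alternatives tried were median-of-ratios and library-total scaling, no filter on low counts, an empirical Bayes step that was not robust, limma-trend, quality weights, a 2-fold limit, the greenhouse libraries alone, a replicate block and libraries left out. Counts of genes called in every fit without 1 greenhouse library, and sunlight values of genes chosen without libraries that stand apart, were added after seeing the data.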

Additional observations from a re-analysis of the deposited data

How the results depend on the processing

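All 1094 genes called in the greenhouse kept their direction with both other scalings, limma-trend, no filter, an empirical Bayes step that was not robust, library quality weights and the replicate block. These fits reused the same 12 libraries, in which the greenhouse groups did not overlap at any called gene, so the direction could hardly change. Of the 1094 genes, 393 stayed called with the replicate block, 855 with library totals, and between 989 and 1094 with each of the other settings. The number of calls ranged from 274 to 1200 with 1 library left out, the number higher from 108 to 577 and the number lower from 166 to 642. It was 1849 with library quality weights (973 higher, 876 lower), 317 in the 6 greenhouse libraries alone (142 higher, 175 lower) and 328 without both libraries that stand apart (154 higher, 174 lower). With a 2-fold limit 726 genes remained, 372 higher and 354 lower. Library totals gave 1241 higher and 334 lower. With a replicate block the count was 430, with 217 higher and 213 lower; the labels share numbers between groups, but same-numbered greenhouse libraries deviated together at r = -0.16, 0.056 and -0.20, so the numbers were not taken as pairs. In that fit Potra164274g27161 had limma adjusted p = 0.119. The cause of these differences was not tested, and several of the fits also held fewer libraries. The differences in library measures kept their sign in every alternative run.

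Among genes chosen in the greenhouse, the share lower without overlap in sunlight was 58.5% when the fit of all 12 libraries chose them (571 genes) and 82.7% without both libraries that stand apart (81 genes). Depth limits the changes of at least 8-fold, since 59 of the 100 lowered genes averaged under 1 CPM in OE and 20 of the 27 raised genes under 1 CPM in WT. A count model (quasi-likelihood) was planned and not run.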

Other observations

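A few genes were without any count in 1 group. There were 3 genes with no count in any OE greenhouse library and at least 10 counts in every WT greenhouse library, where they averaged between 1.75 and 2.92 CPM. No gene showed the reverse pattern. None of the 3 was without counts in all OE sunlight libraries, and all 3 were lower in OE than in WT there without overlap, as were 7.67% of all tested genes.

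Each gene ID has a first part and a gene number, whose meaning the sources used here do not state. Of the 571 lowered genes 99 (17.3%) shared the first part with another lowered gene, and of the 523 raised genes 68 (13.0%) with another raised gene. Of all tested genes 85.2% shared the first part with another tested gene, called or not. The shares that calls placed at random would give were not worked out, so these shares do not show grouping. Among tested genes whose number directly precedes or follows that of a lowered gene with the same first part, 4.33% (26 of 600) were lowered, against 2.44% of the others. Next to a raised gene 4.18% (20 of 479) were raised, against 2.24% of the others. No test was made of these shares. Whether such genes overlap or share reads was not analysed here.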
